A study of Mus musculus with 6 samples.

Results

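Vascular smooth muscle cells of the mouse genioglossus, the tongue muscle that protrudes the tongue and helps to keep the upper airway open, were described from droplet single-cell RNA sequencing of male mice, as OSA replicates 1, 2 and 3 against control replicate 2. A barcode, which stands for 1 captured cell, was a member if it held at least 300 genes, at least 3 UMIs (counted transcript molecules) of Myh11, Pln and Tesc together, more of these than of Kcnj8, Abcc9, Higd1b and Vtn together, at least 5 UMIs of Acta2 and Tagln, at most 1 of Pecam1 and Cdh5, and 0 of Ptprc and Pdgfra. This gave 520, 361 and 476 members in OSA replicates 1, 2 and 3 and 651 in control replicate 2, or 2008 of 56309 barcodes with at least 300 genes. The OSA libraries carry the treatment label OSA-4W, for tissue collected 4 weeks after obstructive sleep apnea was modelled, and the control libraries the label control. All come from primary tissue of male mice and from batch 1, and the labels used here give no strain, age or way of making the model. They also do not say whether each library is a separate animal, so each p-value reflects library-to-library spread alone, which may be technical. Control replicates 1 and 3 have no count matrix in what was analysed here.

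Vascular smooth muscle cells wrap arteries, arterioles and veins and set vessel width by contracting. Calcium that enters through voltage-gated channels or leaves internal stores activates myosin light chain kinase, and the smooth muscle myosin Myh11 then pulls on alpha actin (Acta2). The contractile genes are switched on by serum response factor and its partner myocardin (Myocd), which act on a DNA motif called the CArG box. In injured vessels such cells can lower contractile genes and raise matrix, adhesion and inflammatory genes, a shift known as phenotypic modulation.

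The members carried several transcripts that the label asks for, while the markers Kcnmb1 and Rergl were rare. Acta2, vascular alpha actin, stood at 10559, 8539 and 9312 CPM (counts scaled to a common library total) of the summed barcodes in OSA replicates 1, 2 and 3 and at 9700 CPM in control replicate 2. Myh11 stood at 5219, 5119 and 4146 CPM in the OSA libraries and at 6527 CPM in the control. Pln, the phospholamban that restrains the calcium pump of the sarcoplasmic reticulum, stood at 424, 345 and 334 CPM in the OSA libraries and at 398 CPM in the control. The members were chosen by the counts of these and the other rule genes, which are given as values only. Markers outside the rule were present to different degrees. Myl9, a myosin regulatory light chain, stood at 4941 to 6499 CPM in the OSA libraries and at 5879 CPM in the control. Myocd stood at 160 to 214 CPM in the OSA libraries and at 196 CPM in the control. Myocd was at 8.6 to 10.8 CPM in OSA pericyte barcodes and at 25.5 CPM in those of the control. In barcodes thinned to an equal number of UMIs, Myl9 was in 97.4 to 99.1% of OSA members and 98.7% of control members. It was also in 56.7 to 73.8% of OSA pericytes and 73.1% of control pericytes. Few members held Kcnmb1 (5.78 to 7.9% in OSA, 6.37% in the control) or Rergl (0.867 to 1.96% and 0.654%). In pericytes Kcnmb1 was in 0.495 to 0.659% of OSA barcodes and 0.538% of control ones, and Rergl in 0%. Tissue and cell type are labelled as skeletal muscle cells, but 15 myofibre markers together reached only 65.6 to 153 CPM in the OSA members and 76.6 CPM in the control members.

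**Figure D1:**
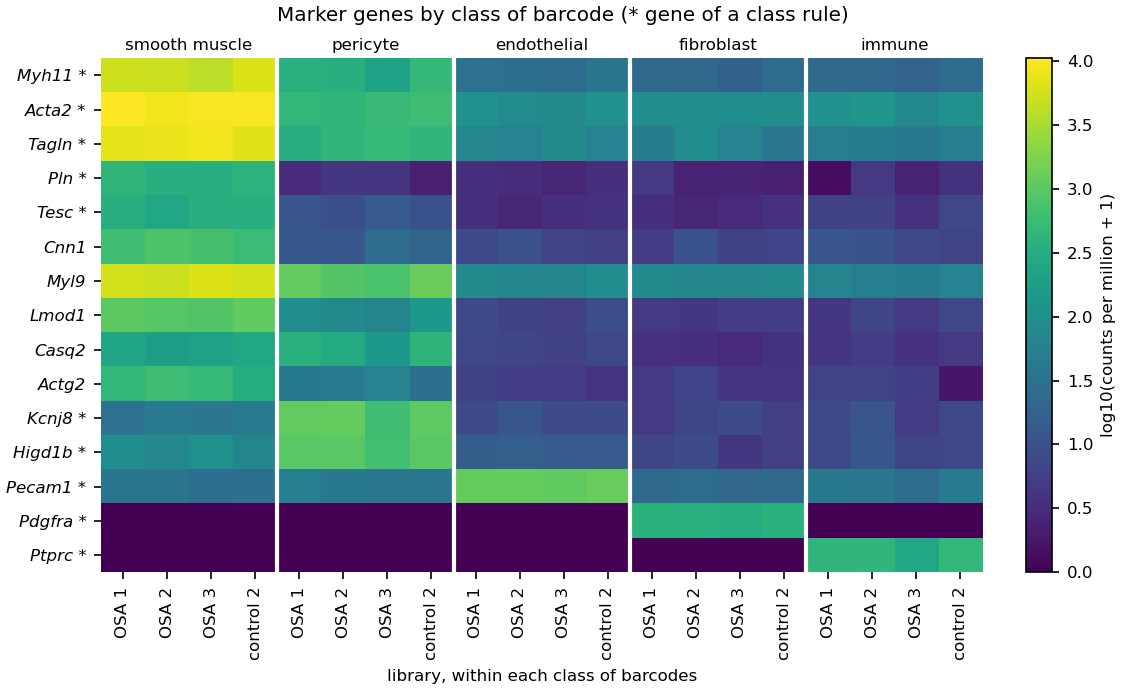
Level of marker genes (rows) as log10(CPM + 1) in barcodes of 5 classes, with the libraries of each class as columns. Myh11, Acta2 and Tagln are brightest in smooth muscle barcodes of every library, while Casq2 is as bright in pericytes. Asterisks mark genes that a class rule used, whose contrast the rule fixes.

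Members were deep relative to their libraries, with medians of 7062, 7107 and 5991.5 UMIs in OSA replicates 1, 2 and 3 and 6913 in control replicate 2, and with 2630056 to 4374873 UMIs in the summed members of a library. Any pair of the 6 barcode lists shared 41 to 67 barcodes, at most 0.468% of the smaller list. Near the threshold, 10, 9 and 18 OSA members and 19 control members held a sum of 3 or 4 UMIs of Myh11, Pln and Tesc, and 24, 23 and 27 OSA barcodes and 25 control barcodes with a sum of 1 or 2 lay just outside. The limit on Pecam1 and Cdh5 kept out 199, 130 and 93 barcodes in the OSA libraries and 235 in the control. Transcripts of other cells were present in the members at levels that differed between libraries. The summed level of 17 myeloid markers outside the rule was 247, 738 and 615 CPM in OSA replicates 1, 2 and 3 and 81.4 CPM in the control, with a log2 change above 0 in 14 of the 14 that could be tested and with 2 to 5 markers at 0 in the OSA libraries and 4 in the control. The 6 erythroid markers summed to 2203, 289 and 180 CPM in the OSA libraries and to 186 CPM in the control, so that OSA replicate 1 stood apart. The 14 fibroblast and tenocyte markers summed to 1871, 2227 and 3117 CPM in the OSA libraries and to 2238 CPM in the control, the 13 endothelial markers to 2044, 1956 and 1706 CPM and to 1505 CPM, and the 10 Schwann cell markers to 384, 217 and 204 CPM and to 363 CPM.

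Pericytes, the mural cells of capillaries, were set beside the members as the other mural class. Pericyte barcodes were taken by the mirror rule, with at least 3 UMIs of Kcnj8, Abcc9, Higd1b and Vtn. Of 2801 genes at 50 CPM or more in smooth muscle barcodes of every library, 299 stood at no less than 2 times the pericyte level in each library, and 263 of 2922 did so in the opposite direction. These levels follow from sorting cells by their transcripts and are given without a test. The leading gene was Asb2, a subunit of a ubiquitin ligase that acts on filamins, at 232, 209 and 244 CPM in OSA smooth muscle barcodes and 256 CPM in control ones, against 1.02, 2.70 and 2.14 CPM in OSA pericytes and 3.12 CPM in control pericytes. It was followed by Xirp1, an actin-binding protein of striated muscle, Fbxl22, Gpr20, Ryr2, the calcium release channel known from heart, the RNA-binding splicing regulator Rbm24, Sh3bgr, Nrip2, the potassium channel Kcnk3, Map3k7cl, Lrrc10b, the calponin Cnn1, the peptide gene Grp, the integrin Itga8 and Fgf13. Grp, for gastrin-releasing peptide, stood at 81.1, 66.2 and 86.2 CPM in OSA smooth muscle barcodes and 104.9 CPM in control ones, and at 0 UMIs in pericytes of 3 of the 4 libraries. On the pericyte side the first genes were Plxdc1, Steap4, Pde7b, the oxysterol receptor Nr1h3 and Art3. Casq2, the calcium-binding calsequestrin listed as a smooth muscle marker, was not among the separating genes, at 179 to 243 CPM in OSA smooth muscle barcodes and 249 CPM in control ones, against 137 to 376 CPM in OSA pericytes and 410 CPM in control pericytes.

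The CArG box was searched in the 250 bases before each start site of the RefSeq promoters (GRCm38.p6, a build other than that of the count files). Only the strict form was counted: CC, then 6 bases of A or T, then GG. This sequence class reads the same on both strands. It occurred before 439 of 27025 genes (1.62%), before 6 of 26 genes of the contractile apparatus list that have an entry (23.1%), before 2 of 8 of the 15 genes named above as higher in smooth muscle that have an entry and before 0 of 11 among the 15 leading genes on the pericyte side. No match to the strict form lay before Acta2, Pln or Tesc, which are genes of the rule. The Acta2 window does hold ccctatatgg and ccttgtttgg. Each has a single C or G among its inner bases, and such near forms were not counted for any gene. Nor did a strict match lie before Cnn1, Ryr2, Rbm24, Lrrc10b, Itga8 or Fgf13, the other separating genes with an entry. Shown, from genes with a match, are the light chain gene Myl9 and the separating genes Asb2 and Fbxl22. They run 5' to 3' and end at the base before the start site, with the CArG box in capitals. Asb2 has a further start site in the table without a match. The windows are chr2:156775214-156775463 on the plus strand for Myl9, chr12:103356002-103356251 on the minus strand for Asb2 and chr9:66514594-66514843 on the minus strand for Fbxl22, with the box at position -161, -64 and -222 in turn, counted from -1 at the base before the start.
Myl9: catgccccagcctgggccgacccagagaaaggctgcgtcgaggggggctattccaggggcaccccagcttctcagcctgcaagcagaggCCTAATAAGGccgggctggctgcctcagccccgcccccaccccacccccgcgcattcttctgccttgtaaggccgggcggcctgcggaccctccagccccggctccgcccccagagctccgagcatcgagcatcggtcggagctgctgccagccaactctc
Asb2: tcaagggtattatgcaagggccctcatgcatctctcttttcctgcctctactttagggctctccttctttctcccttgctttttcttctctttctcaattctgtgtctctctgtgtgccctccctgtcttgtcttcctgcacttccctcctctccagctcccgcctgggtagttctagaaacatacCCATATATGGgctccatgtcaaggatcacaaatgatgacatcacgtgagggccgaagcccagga
Fbxl22: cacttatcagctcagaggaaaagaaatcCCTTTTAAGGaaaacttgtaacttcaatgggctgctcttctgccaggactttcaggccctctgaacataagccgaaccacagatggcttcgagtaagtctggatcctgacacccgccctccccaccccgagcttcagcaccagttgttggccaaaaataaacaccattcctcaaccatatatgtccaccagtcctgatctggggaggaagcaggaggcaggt
A match is a run of letters, not a measured binding site.

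Members made up a smaller share of barcodes in each OSA library than in the control library. The share was 3.31% (95% exact binomial interval 3.03 to 3.60), 2.87% (2.58 to 3.17) and 3.33% (3.04 to 3.63) in OSA replicates 1, 2 and 3 and 4.75% (4.40 to 5.12) in control replicate 2. The OSA mean was 3.17 ± 0.26% (SD, n = 3), and the difference of -1.58 percentage points had a two-sided p of 0.25 by exact permutation of the libraries, the smallest value that 3 against 1 allow. Within smooth muscle and pericyte barcodes together, the members were 46.8%, 47.3% and 47.9% in the OSA libraries and 56.6% in the control, also with p = 0.25 in the exact permutation test. Intervals cover counting error only, and a share also moves with the numbers of all other cells.

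**Figure D2:**
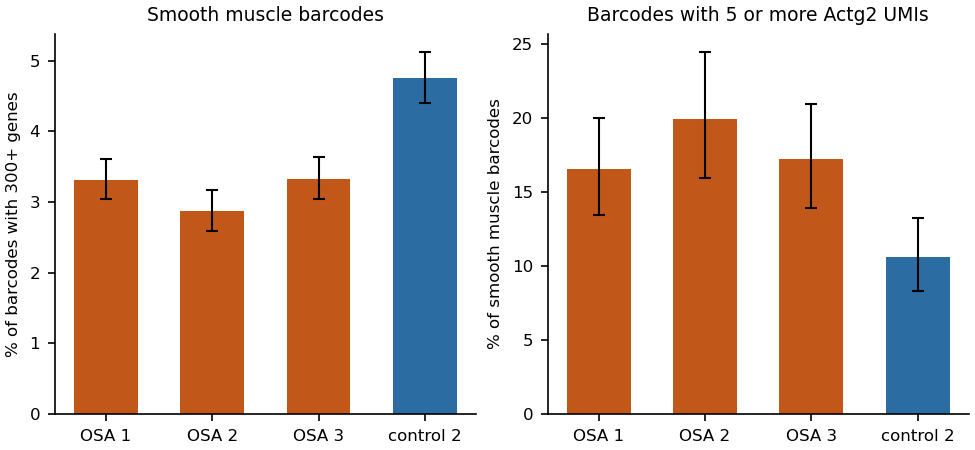
Left, members as a percentage of barcodes with at least 300 genes. Right, barcodes with 5 or more Actg2 UMIs as a percentage of members. Bars are libraries, with exact binomial 95% intervals, and the OSA libraries lie below the control on the left (2.87 to 3.33% and 4.75%) and above it on the right (16.5 to 19.9% and 10.6%).

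Few genes passed the test of OSA minus control in the members. Counts were summed per library and tested by the quasi-likelihood method of edgeR, with p-values adjusted by Benjamini-Hochberg over 12659 genes outside the rule at a threshold of 0.05. The test called 9 genes (0.0711%), of which 7 rose (0.0553%) and 2 fell (0.0158%), while 344 genes were higher (2.72%) and 300 lower (2.37%) at an unadjusted p under 0.05. Mgp, Pappa2 and Ly6c1 rose and Nfatc2 fell under the rule for named genes, which asks for a mean log2 CPM of at least 5. Slpi, Rxfp1, Rasef and Lypd8l rose and Pcdh10 fell below that level, and these 5 were named after their values were seen. Only the OSA libraries inform the spread (2 residual degrees of freedom), and the single control is assumed to vary as they do. In bulk sums of a class, fewer cells with a transcript and less of it per cell cannot be told apart.

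**Figure D3:**
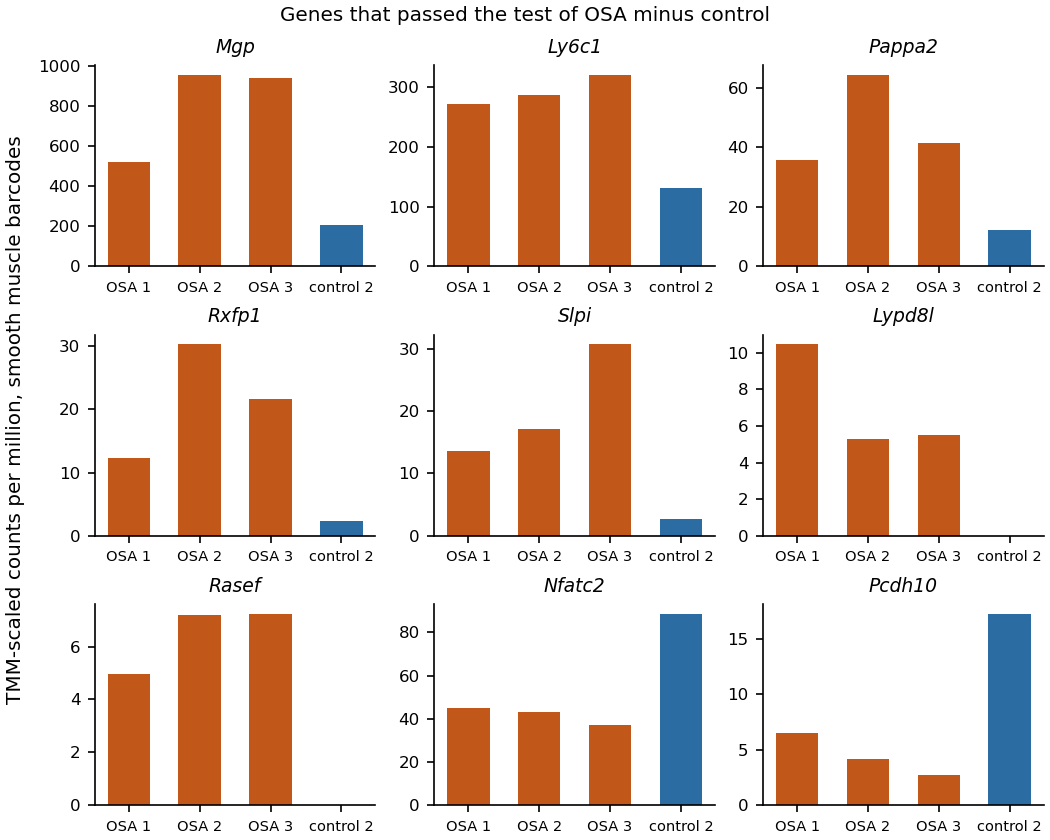
TMM-scaled CPM of the 9 called genes in the summed smooth muscle barcodes, with 1 bar for each library. Mgp lies at 518 to 955 CPM in OSA and at 206 CPM in the control, Nfatc2 at 37.2 to 45.0 CPM and at 88.6 CPM, and Rasef and Lypd8l have no count in the control.

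Mgp encodes matrix Gla protein, an inhibitor of calcification in the artery wall. It stood at 518, 955 and 939 CPM (TMM-scaled, as all levels in the test) in OSA replicates 1, 2 and 3 and at 206 CPM in control replicate 2. All OSA libraries lay above the control, with a mean of 804 ± 248 CPM (SD, n = 3) and a log2 change of 1.97 ± 0.33 (SE, edgeR adjusted p = 0.0243). Without OSA replicate 3 the log2 change was 1.84 with an adjusted p of 0.893, under stricter membership it was 1.83 (0.973), and DESeq2 gave 1.97 (0.402), so the size held while the call did not. In members free of other cells' transcripts the log2 change was 2.32 (edgeR adjusted p = 1.06e-11). A single barcode held 412 of 1982 Mgp UMIs in OSA replicate 1, and without the barcode richest in Mgp in each library the unscaled levels were 424, 857 and 791 CPM in OSA and 177 CPM in the control. Members were not its main source: unscaled levels were 3354 to 4640 CPM in OSA pericytes and 2459 CPM in control pericytes, and 3411 to 4585 CPM in OSA fibroblasts and 2232 CPM in control fibroblasts. Immune barcodes held 350, 631 and 393 CPM in OSA and 71.5 CPM in the control. At 1500 UMIs per barcode the expected share of members with an Mgp UMI was 23.7%, 34.7% and 33.4% in OSA and 11.7% in the control, against 21.5%, 30.6% and 29.2% of immune barcodes in OSA and 9.18% in the control. The member shares were above those of immune barcodes in all 4 libraries, but within each library the 95% binomial intervals overlapped. Median depth of immune barcodes was 4041 to 6972.5 UMIs in OSA and 4571 in the control. The difference between the change in members and that in pericytes was 1.09 ± 0.19 on the log2 scale (SE, edgeR adjusted p = 0.174).

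Pappa2, a secreted protease that frees insulin-like growth factors from their binding proteins, was held largely by the members. It stood at 35.8, 64.4 and 41.4 CPM in OSA replicates 1, 2 and 3 and at 12.0 CPM in control replicate 2, with all OSA libraries above the control. The log2 change was 1.96 ± 0.34 (SE, edgeR adjusted p = 0.0143), and without OSA replicate 3 the adjusted p was 0.175. Few cells carried it: 26, 32 and 31 OSA members and 13 control members had a UMI, and the richest barcode held 22.9 to 27.0% of its UMIs in the OSA libraries and 24.5% in the control. Unscaled levels in pericytes were 3.06, 2.70 and 12.4 CPM in OSA and 4.99 CPM in the control, and in immune barcodes they were 0.377 to 1.31 CPM in OSA and 0.722 CPM in the control.

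Ly6c1, a surface protein known from capillary endothelium, stood at 272, 287 and 321 CPM in the OSA libraries and at 131 CPM in the control. Its OSA mean was 293 ± 24.9 CPM (SD, n = 3), all OSA libraries lay above the control, and the log2 change was 1.16 ± 0.24 (SE, edgeR adjusted p = 0.0388). Endothelial barcodes held 3824 to 4594 CPM in OSA and 2341 CPM in the control. Pericytes held 539, 682 and 724 CPM in OSA and 295 CPM in the control. Their log2 change was 1.21 and did not pass. Immune barcodes held 302, 370 and 273 CPM in OSA and 149 CPM in the control, about the level of the members. The expected share of barcodes with a UMI at 1500 UMIs was 32.4%, 35.6% and 30.5% of OSA members and 17.9% of control members, against 35.8%, 43.9% and 31.9% of OSA immune barcodes and 18.4% of control ones. Member shares were at or below those of immune barcodes in each library. Whether the members themselves make Ly6c1 was not tested. Its relative Ly6a, a surface protein of many progenitor cells, was at 218, 246 and 320 CPM in OSA and 121 CPM in the control but did not pass (edgeR adjusted p = 0.0963). Slpi, a secreted inhibitor of neutrophil proteases, was at 13.6, 17.1 and 30.7 CPM in OSA members and 2.73 CPM in control members (log2 change 2.88 ± 0.51, edgeR adjusted p = 0.0204). Immune barcodes held 1012, 960 and 609 CPM of it in OSA and 154 CPM in the control, and endothelial barcodes 11.2, 15.9 and 32.3 CPM and 1.27 CPM. Pericytes held 15.3, 19.6 and 63.8 CPM of Slpi in OSA and 3.12 CPM in the control.

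Nfatc2, a transcription factor switched on by calcium through calcineurin, stood at 45.0, 43.2 and 37.2 CPM in the OSA libraries and at 88.6 CPM in the control. The log2 change was -1.08 ± 0.23 (SE, edgeR adjusted p = 0.0463), with all OSA libraries below the control. One control barcode held 49 of the 390 control UMIs. Without barcodes called doublets the log2 change was -0.71 (adjusted p = 0.454), in barcodes free of other cells' transcripts it was -0.43, and DESeq2 gave an adjusted p of 0.418. Pcdh10, a cell adhesion protocadherin, was at 6.54, 4.17 and 2.76 CPM in OSA and 17.3 CPM in the control (log2 change -1.90 ± 0.39, edgeR adjusted p = 0.0388). It was found in 19, 7 and 7 OSA members and in 48 control members, and at 0 to 1.35 CPM in OSA pericytes and 1.87 CPM in control pericytes.

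The other low genes rested on a handful of barcodes. Rxfp1, the relaxin receptor, was at 12.3, 30.3 and 21.7 CPM in OSA and 2.27 CPM in the control (log2 change 3.19 ± 0.54, edgeR adjusted p = 0.016), and it came from 7, 9 and 13 OSA barcodes and 6 control barcodes. Without the richest barcode of each library its unscaled level was 5.95, 22.1 and 9.99 CPM in OSA and 1.60 CPM in the control. Pericytes held 5.61, 37.8 and 11.1 CPM of Rxfp1 in OSA and 1.25 CPM in the control. Fibroblasts held 8.78, 27.7 and 8.53 CPM in OSA and 17.2 CPM in the control. Rasef, a member of the Rab GTPase family, had 19, 19 and 21 UMIs in OSA and 0 in the control, at least 9.38-fold higher when the control library is given the floor of 3 counts (edgeR adjusted p = 0.0108). All 19 of its UMIs in OSA replicate 1 lay in 1 barcode, and 20 of 21 in OSA replicate 3. Endothelial barcodes held 3.03, 3.06 and 15.9 CPM of Rasef in OSA and 3.12 CPM in the control. Lypd8l had 40, 14 and 16 UMIs in 25, 7 and 7 OSA barcodes and 0 in the control, at least 10.4-fold higher with the same floor (edgeR adjusted p = 0.00907). It was at or near 0 in every other class.

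Genes with the largest changes among those at an unadjusted p under 0.01 did not pass after adjustment and are given as values. On the higher side these were Igfbp2, Ly6a, Hspb7, Clu, Aldh1a1, Hspb1 and Tnfaip2, with log2 changes of 0.96 to 1.43. Igfbp2, a binding protein of insulin-like growth factors, stood at 60.4, 54.2 and 103 CPM in OSA and 26.8 CPM in the control (edgeR adjusted p = 0.269). Hspb1, a small heat shock protein that binds actin, stood at 2000, 3467 and 3385 CPM in OSA and 1475 CPM in the control (edgeR adjusted p = 0.466). Aldh1a1, which makes retinoic acid, stood at 43.9, 58.0 and 51.7 CPM in OSA and 25.4 CPM in the control (edgeR adjusted p = 0.283). On the lower side were Trp53i11, Rnd1, Ccrl2, Elovl5, Tmem88, Mpp2, Trmt61b, Birc2 and Ppargc1b, with log2 changes of -0.95 to -0.76. Elovl5, an elongase of polyunsaturated fatty acids, stood at 149, 132 and 120 CPM in OSA and 235 CPM in the control (edgeR adjusted p = 0.269). Ppargc1b, a coactivator of mitochondrial genes, stood at 55.7, 44.0 and 41.0 CPM in OSA and 79.5 CPM in the control (edgeR adjusted p = 0.493).

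No contractile gene passed the test. Of 30 contractile apparatus genes outside the rule, 10 had a log2 change above 0 and 20 below, with a median of -0.04 (-0.07 without OSA replicate 2 or 3) beside 0.02 over all genes tested. Their summed level was 46268, 44201 and 45270 CPM in the OSA libraries and 47573 CPM in the control. The gene farthest from 0 was Actg2, the actin of visceral smooth muscle, at 441, 595 and 515 CPM in OSA and 304 CPM in the control (log2 change 0.77 ± 0.24, edgeR adjusted p = 0.52). Cnn1, a calponin that binds actin, stood at 588, 832 and 727 CPM in OSA and 551 CPM in the control, Mylk, the light chain kinase, at 2960, 2935 and 2979 CPM and 3390 CPM, and the tropomyosin Tpm1 at 4613, 4294 and 3824 CPM and 4997 CPM. None of these 4 differences passed the test. Among 22 transcription factors of smooth muscle, 10 were above 0 and 12 below and none passed, with Myocd at 190, 213 and 166 CPM in OSA and 195 CPM in the control. Of 29 genes of the kinase and phosphatase pathway of contraction, 13 were above 0, 16 below, and none passed. The medians of these lists were -0.02 and -0.03, and both turned positive without OSA replicate 3, the median of the transcription factors also without OSA replicate 1.

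Channels and calcium handling genes leaned lower without any that passed. Of 29 genes, 6 had a log2 change above 0 and 23 below, and 13 lay below the control in all OSA libraries, where 24.1% of all genes did so. Their median was -0.16, or -0.28 when OSA replicate 1 was left out and -0.11 when OSA replicate 3 was. In pericytes the median of the list was -0.085. Cacna1c, the pore of the L-type calcium channel, stood at 781, 750 and 582 CPM in OSA and 961 CPM in the control (log2 change -0.45 ± 0.23). The large-conductance potassium channel Kcnma1 stood at 415, 343 and 263 CPM in OSA and 456 CPM in the control, and Itpr1, the inositol trisphosphate receptor, at 271, 244 and 195 CPM and 311 CPM. OSA replicate 3 had the lowest value of each of these 3 genes. Gucy1b1, a subunit of the nitric oxide receptor on the kinase and phosphatase list, stood at 330, 240 and 205 CPM in OSA and 356 CPM in the control. For 25 vasoactive receptors the median was -0.08 (-0.04 when OSA replicate 1 was left out, -0.03 when OSA replicate 3 was), with 11 above 0 and 14 below and none called. Adra1b, an alpha-1 adrenergic receptor, stood at 16.7, 27.3 and 32.7 CPM in OSA and 10.7 CPM in the control (log2 change 1.24 ± 0.36, edgeR adjusted p = 0.395), while Adra1a stood at 228, 219 and 148 CPM in OSA and 254 CPM in the control. Among endothelin receptors, Ednrb stood at 104, 99.7 and 94.8 CPM in OSA and 64.5 CPM in the control, and Ednra at 161, 143 and 131 CPM and 176 CPM. Of 14 Notch genes 9 lay below the control in all OSA libraries, none passed, and the target gene Heyl had the lowest log2 change, at 35.8, 51.2 and 53.8 CPM in OSA and 71.6 CPM in the control.

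Genes of phenotypic modulation leaned higher, and Mgp alone of them passed. This list, like the others, was chosen with earlier results of these data known, so its lean is a description only. Of 22 tested, 21 had a log2 change above 0 and 1 below, the median was 0.61, and 17 lay above the control in all OSA libraries, where 24.8% of all genes did so. Vim, the intermediate filament vimentin, stood at 1896, 1938 and 2146 CPM in OSA and 1323 CPM in the control (log2 change 0.59 ± 0.26, edgeR adjusted p = 0.89). The matrix proteoglycan gene Lum stood at 15.2, 9.48 and 14.5 CPM in OSA and 3.86 CPM in the control (edgeR adjusted p = 0.238). The highest fitted changes in the list rested on few UMIs in the control: the osteopontin gene Spp1 stood at 7.06, 3.03 and 19.99 CPM in OSA and 0.227 CPM in the control, where it had 1 UMI, and the protease inhibitor gene Timp1 at 11.5, 19.3 and 43.4 CPM and 4.77 CPM. Immune barcodes held 95.5 to 904 CPM of Spp1 in OSA and 6.495 CPM in the control (unscaled). Cd44, the hyaluronan receptor, stood at 55.4, 101 and 62.0 CPM in OSA and 46.6 CPM in the control. Many members of the list are abundant in fibroblasts and macrophages, whose markers differed between libraries as given above, and their part in these values was not tested. The median of the list was 0.45 without OSA replicate 3. In pericytes its median was 0.49. Interstitial matrix genes had 19 above 0 and 3 below of 22 (median 0.28, but 0.49 when OSA replicate 1 was left out and 0.08 when OSA replicate 3 was), with Col3a1 at 197, 191 and 340 CPM in OSA and 136 CPM in the control and Col1a1 at 158, 237 and 396 CPM and 252 CPM. Elastic fibre and basement membrane genes had a median of 0.09, or 0.20 when OSA replicate 1 was left out and -0.02 when OSA replicate 3 was, and the elastin gene Eln stood at 142, 118 and 153 CPM in OSA and 131 CPM in the control. None of either list passed.

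None of the genes on the stress and housekeeping lists passed. Of 17 heat shock genes 14 were above 0 and 3 below, and 11 lay above the control in all OSA libraries, where 24.8% of all genes did so. Their median was 0.36 in members and 0.03 in pericytes, a difference that was not tested. Hspb7, a small heat shock protein of muscle, stood at 82.6, 130 and 144 CPM in OSA and 57.9 CPM in the control (log2 change 1.03 ± 0.28, edgeR adjusted p = 0.345). All 43 ribosomal protein genes were above 0, by a median of 0.25 in members and 0.29 in pericytes. Of these, 36 lay above the control in every OSA library, beside the same 24.8% of all genes. Without OSA replicate 3 the ribosomal median was 0.11, that of the heat shock genes 0.26. Nuclear-encoded genes of oxidative phosphorylation were above 0 in 7 cases and below in 32, with a median of -0.08, or -0.02 when OSA replicate 2 was left out and -0.17 when OSA replicate 3 was. Hypoxia and glycolysis genes were above 0 in 20 of 30 with a median of 0.13 (0.04 without OSA replicate 3), and Vegfa, the hypoxia-induced endothelial growth factor, stood at 32.2, 39.8 and 31.4 CPM in OSA and 41.6 CPM in the control. Of 26 antioxidant and oxidant-producing genes 21 were above 0 and 5 below (median 0.22, and 0.13 without OSA replicate 3). Sod3, the extracellular superoxide dismutase of the vessel wall, stood at 314, 354 and 491 CPM in OSA and 209 CPM in the control (log2 change 0.89 ± 0.25, edgeR adjusted p = 0.395), and Prdx1 at 318, 254 and 224 CPM and 150 CPM. Inflammatory genes lay on both sides: of 28 acute phase and innate genes, 16 were above 0 and 12 below, with the NF-kappaB genes Nfkb1 (328, 375 and 297 CPM in OSA and 474 CPM in the control) and Relb (145, 135 and 109 CPM and 193 CPM) below the control in all OSA libraries. Interferon and antigen presentation genes were above 0 in 21 of 27, but their regulator Irf1 lay lower, at 541, 489 and 431 CPM in OSA and 764 CPM in the control (log2 change -0.65 ± 0.22, edgeR adjusted p = 0.65).

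**Figure D4:**
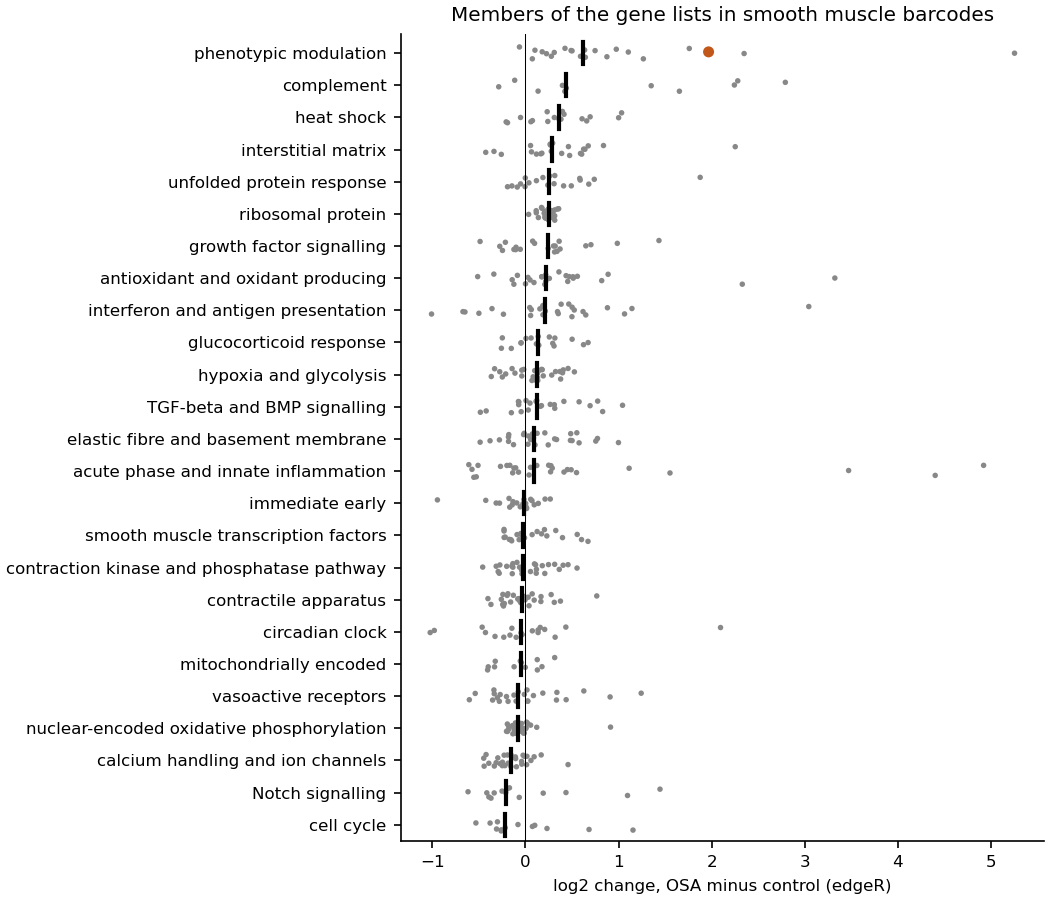
Log2 change of OSA minus control for each tested member of the gene lists, ordered by list median (black bars). The large orange point is Mgp, which passed at an adjusted p under 0.05, and grey points did not pass. The phenotypic modulation list has the highest median, 0.61, while contractile apparatus lies at -0.04. The lists were chosen with earlier results of these data known.

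The members were not uniform. Each barcode was thinned to 1500 UMIs, which left 510, 346 and 456 OSA members and 612 control members, and the genes outside the rule with the highest lowest-library ratio of variance to mean were Malat1, Mgp, Crispld2, Tmsb4x, Mt1, S100a6, Crip1, Mt2, Dcn, Fos, Fst, Actg2, Tpm2, Rgs5 and Rasl11a. The ratio for Tmsb4x, the actin-sequestering thymosin beta 4, was 6.98, 6.92 and 8.25 in OSA and 5.32 in the control. Across thinned members within a library, Tmsb4x and Actg2 had correlations of 0.492 to 0.65, Fst and Actg2 of 0.454 to 0.535, and Actg2 and Cnn1 of 0.355 to 0.643 over the 4 libraries, and Tmsb4x and Pln of -0.348 to -0.278. These are descriptions across cells of 1 library, whose UMIs share a fixed total.

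Members were therefore split at 5 UMIs of Actg2, a division made after the values were seen. Barcodes at or above it were 86 of 520, 72 of 361 and 82 of 476 members in OSA replicates 1, 2 and 3 and 69 of 651 in control replicate 2. That is 16.5% (95% exact binomial interval 13.4 to 20.02), 19.9% (15.9 to 24.4) and 17.2% (13.9 to 20.9) in OSA and 10.6% (8.34 to 13.2) in the control. These intervals cover counting error only. The OSA mean was 17.9 ± 1.80% (SD, n = 3), 7.30 percentage points above the control. Exact permutation of the libraries gave a two-sided p of 0.25, the smallest value that 3 against 1 allow. The cut divides a range: 8, 9 and 10 OSA barcodes and 14 control barcodes had exactly 4 UMIs, and 11, 5 and 6 OSA barcodes and 7 control barcodes had 5. Depth differed across the cut, with medians of 8282 to 9560.5 UMIs in OSA barcodes above it and 9010 in control ones, against 5628 to 6862 UMIs in OSA barcodes with no Actg2 UMI and 6656 in control ones. At a fixed 1500 UMIs the expected share of members with an Actg2 UMI was 20.02%, 23.4% and 22.02% in OSA and 16.5% in the control, and in immune barcodes it was 0.626 to 0.873% in OSA and 0.076% in the control. The 95% binomial interval of the control member share, 13.6 to 19.7%, overlapped that of each OSA library. Unthinned, 30.2%, 34.9% and 31.7% of OSA members and 28.1% of control members had a UMI.

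Barcodes with 5 or more Actg2 UMIs differed from the others in many genes in every library. Fst, the activin inhibitor follistatin, stood there at 880, 1461 and 1024 CPM (unscaled) in OSA and 699 CPM in the control, against 27.6 to 77.6 CPM in OSA barcodes under the cut and 47.7 CPM in control ones. Tmsb4x was at 7260, 7838 and 8313 CPM above the cut in OSA and 5746 CPM in the control, against 1364 to 1584 CPM and 1033 CPM under it. Cnn1, Aldh1a1, Igfbp2, Hspb1, Hspb7, Adra1b and Eln were also higher above the cut in each library. Igfbp2 was at 262, 181 and 336 CPM in OSA barcodes above the cut and 152 CPM in control ones, against 2.68 to 11.4 CPM and 4.58 CPM under it. Pln and Tesc, both genes of the rule, were lower above the cut, with Pln at 77.4 to 119 CPM in OSA and 186 CPM in the control against 417 to 510 CPM and 436 CPM under it. Crispld2 and Casq2 were lower above the cut as well. Of the 4 pericyte genes of the rule, 3 were higher above the cut in every library. Kcnj8, a subunit of an ATP-sensitive potassium channel, stood there at 95.6, 105 and 112 CPM in OSA and 155 CPM in the control, against 11.4 to 20.3 CPM and 22.9 CPM under it. Abcc9, its partner subunit, stood at 83.5 to 125 CPM in OSA and 133 CPM in the control, against 8.17 to 17.7 CPM and 27.5 CPM under the cut. Vtn, vitronectin, stood at 169 to 190.1 CPM in OSA and 205 CPM in the control, against 35.9 to 63.2 CPM and 66.5 CPM under it. Higd1b, the other pericyte gene of the rule, stood at 70.0 to 99.3 CPM in OSA and 60.4 CPM in the control, against 71.8 to 117 CPM and 71.7 CPM under it. Outside the rule, the mural genes Rgs5 and Notch3 were lower above the cut in every library. Rgs5 stood there at 95.8 to 233 CPM in OSA and 127 CPM in the control, against 361 to 543 CPM and 314 CPM under it. The part of pericyte transcripts in the differences across the cut was not tested. Myh11 differed little, at 4259 to 5584 CPM in OSA and 6075 CPM in the control above the cut, against 4104 to 5126 CPM and 6608 CPM under it.

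The split bears on the genes with the largest OSA changes in the members. Pappa2 was at 153, 184 and 128 CPM in OSA barcodes above the cut and 46.8 CPM in control ones, against 4.14, 16.1 and 7.26 CPM and 5.93 CPM under it. Refitted in the barcodes above the cut its log2 change was 1.77, and in those under it 0.56. Because the cut was chosen from these same data, the refits are given as descriptions, without p-values. Hspb7 was at 222, 338 and 335 CPM in OSA and 151 CPM in the control above the cut, and at 46.6, 45.5 and 65.8 CPM and 41.8 CPM under it. Mgp was higher in OSA on both sides, at 705, 961 and 1030 CPM and 183 CPM above the cut and at 486, 957 and 856 CPM and 211 CPM under it. Nfatc2 had a log2 change of -0.05 above the cut and -1.39 under it.

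**Figure D5:**
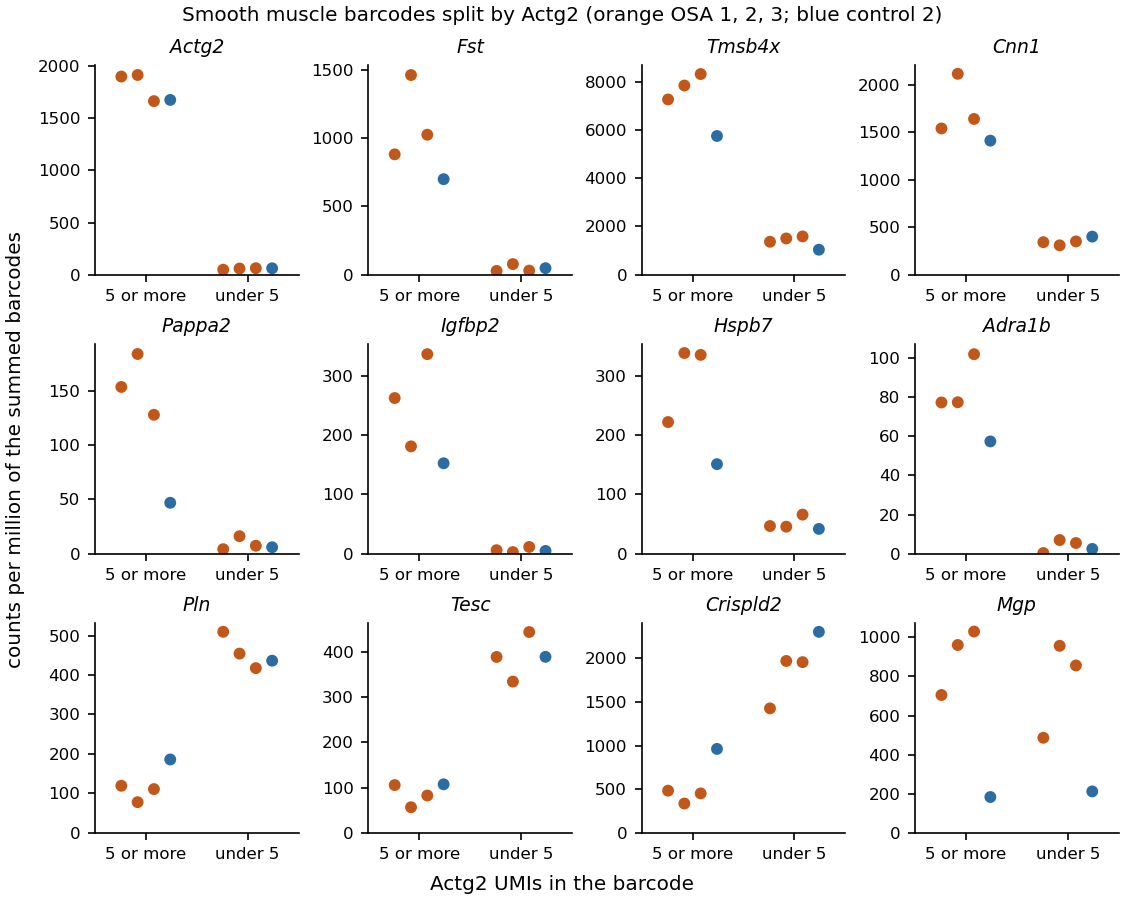
Unscaled CPM of 12 genes in members with 5 or more Actg2 UMIs and in those with under 5, with 1 point for each library. Fst, Tmsb4x, Pappa2, Igfbp2 and Adra1b lie higher on the left of each panel and Pln, Tesc and Crispld2 on the right, in every library. Mgp lies at 486 to 1030 CPM in OSA and at 183 and 211 CPM in the control on either side.

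Compared with the change in other classes, that in the members differed in few genes: edgeR interaction tests called 1 gene against pericytes (0.00744% of those tested), Mt3, and 7 against endothelial barcodes (0.0431%), which are described in the closing section.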

How the data were processed

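The authors deposited UMI counts, whole numbers per gene and called barcode, made from 10x Genomics libraries with Cell Ranger 9.0.1 per the matrix headers, on genome builds GRCm39 and mm39 per the submitters' processing notes. Of 6 libraries, 4 matrices were used, those of OSA replicates 1, 2 and 3 and control replicate 2, while control replicates 1 and 3 were not analysed, and 0 matrix columns lacked a sample. The files hold 33696 gene symbols used here.

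Members were found by the rule given above, and the 13 rule genes got values and no test. The members, the 26 gene lists and the 11 marker lists were chosen with earlier results of these data known. Of the list symbols, 6 are absent from the files. The other classes were taken by like rules on Kcnj8, Abcc9, Higd1b and Vtn (pericytes), Pecam1 and Cdh5 (endothelium, at least 3 UMIs), Pdgfra (fibroblasts, at least 2) or Ptprc (immune, at least 1). Doublets stayed in (9, 6 and 19 OSA members and 20 control members were called), and leaving out those called by Scrublet (scanpy 1.11.5, expected rate 0.1) was an alternative.

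Counts were summed per library and class, filtered with filterByExpr, scaled by TMM and tested with edgeR 4.0.16 (R 4.3.3, glmQLFit robust), with Benjamini-Hochberg adjustment. Rule genes stayed in the fit. Differences in change between classes were interaction terms with library as a block. CPM in the test are TMM-scaled, and CPM across classes are unscaled. Expected shares at 1500 UMIs average over all draws of 1500 UMIs from a barcode, leaving out shallower ones. DESeq2 1.42.0 and the other alternatives are described in the closing section. The test was tried on simulated data before use.

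Named genes were those with an adjusted p under 0.05, an average log2 CPM no lower than 5 and every OSA library on 1 side of the control, 15 at most in each direction by log2 change, list members that passed, abundant list members as values, and genes at an unadjusted p under 0.01 to fill each direction to 10. Symbols of clone type were left out. Whether the counting used strand is not given in the sources used here, so overlapping and antisense genes, and near-identical copies such as the globin genes, are uncertain.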

Additional observations from a re-analysis of the deposited data

Results flagged for a closer look

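The OSA minus control change differed between smooth muscle barcodes and those of another class in 8 genes, by an edgeR interaction test with library as a block. Against pericytes this held for 1 of 13438 genes (0.00744%). Mt3, a metallothionein, stood at 87.6, 63.9 and 98.8 CPM in OSA smooth muscle barcodes and 90.1 CPM in control ones, and at 54.6, 41.1 and 45.8 CPM in OSA pericytes and 8.10 CPM in control pericytes, where the control value rests on 13 UMIs. The log2 difference was -2.71 ± 0.37 (SE, edgeR adjusted p = 0.0193).

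Against endothelial barcodes it held for 7 of 16229 genes (0.0431%). Fmod (log2 difference -1.65 ± 0.17, edgeR adjusted p = 0.00011), Ppfibp2 (-1.45) and Tnmd (-1.36) had a change in smooth muscle barcodes below that in endothelial ones. Fmod, a matrix proteoglycan gene of tendon, stood at 55.8, 131 and 143 CPM in OSA smooth muscle barcodes and 169 CPM in control ones, against 128, 302 and 247 CPM in OSA endothelial barcodes and 115 CPM in control ones. Elovl5 had a difference of -0.84, with 154, 132 and 116 CPM in OSA smooth muscle barcodes and 237 CPM in control ones, against 78.5, 71.9 and 60.1 CPM in OSA endothelial barcodes and 71.1 CPM in control ones. Tmsb4x had a difference of 0.71 ± 0.11 (edgeR adjusted p = 0.0298), with 2660, 3338 and 3401 CPM in OSA smooth muscle barcodes and 1747 CPM in control ones, against 9172, 9495 and 9316 CPM in OSA endothelial barcodes and 8805 CPM in control ones. Sntb1 (1.35) and Pcp4l1 (0.71) had a difference above 0 through lower levels in OSA endothelial barcodes, with Sntb1 at 9.52, 9.18 and 6.88 CPM in OSA and 20.7 CPM in the control there, and at 106, 85.2 and 86.8 CPM and 86.4 CPM in smooth muscle barcodes. Against fibroblasts edgeR called 0 of 14333 genes, with 895 at an unadjusted p under 0.05.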

How the results depend on the processing

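The count of 9 called genes was 9 with DESeq2 size factors and without called doublets, 4 with DESeq2, 56 with no filter on low counts, 5 with at least 10 counts in every library, 3 under stricter membership, 14 in barcodes free of other cells' transcripts, 2 after thinning library sums, 14 after thinning barcodes to 1500 UMIs, and 20 to 73 with an OSA replicate left out. Of the 9, all were still called without OSA replicate 1, 7 without replicate 2 (Ly6c1 and Nfatc2 lost, adjusted p = 0.0791 and 0.0565) and 5 without replicate 3 (Mgp, Pappa2, Pcdh10 and Rxfp1 lost, adjusted p = 0.893, 0.175, 0.143 and 0.233). Of those tested, 6 of the 9 were still called without called doublets, 4 of 9 with DESeq2, 3 of 9 under stricter membership, 2 of 9 after thinning sums, 5 of 6 with at least 10 counts, 2 of 6 in barcodes free of other cells' transcripts and 3 of 7 after thinning barcodes. Splitting members at 5 Actg2 UMIs, chosen after seeing the data, gave 17 calls above and 5 under the cut. All 9 had the same sign wherever they were tested. Differences from pericytes numbered 14 with no filter and 7 to 33 with a replicate left out, those from endothelium 91 and 0 to 77, and those from fibroblasts 81 and 9 to 39. The share difference was -2.08 points with the rule applied at 1500 UMIs per barcode, and -1.66 to -1.43 with a replicate left out. The causes of these shifts were not tested. No paired analysis was possible because the OSA and control libraries analysed share only replicate number 2.

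The main limit is the single control library: its spread cannot be measured, and whatever sets it apart cannot be told apart from the treatment. Low genes rest on few barcodes, and 361 to 651 members per library limit what can be seen in rare states.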
